A study of Mus musculus with 8 samples.

Results

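The genes described here encode trans-synaptic adhesion molecules and synapse organisers of the mouse, the proteins that span or bridge the synaptic cleft and bring pre- and postsynaptic membranes into register. They were chosen by gene symbol as members of 14 families, and 44 genes of the 32285 in the count tables belonged to the set. A second, wider list of 48 other synaptic adhesion genes was counted beside them.

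Neurexins and the LAR-type receptor phosphatases are the main presynaptic hubs, each able to bind several kinds of postsynaptic partner. Neuroligins, LRRTMs, SLITRKs, IL1RAPL proteins, LRFNs and ELFNs sit mostly on the postsynaptic side, while secreted neurexophilins and cerebellins bind neurexins from the cleft. Teneurins, latrophilins and FLRTs form a further set of interacting partners across the cleft, and the contactin-associated proteins are relatives of neurexins that also act at nodes of Ranvier and in neuronal adhesion. Which type of neuron makes which partner is thought to contribute to the choice of synaptic targets in the cortex.

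Nuclei came from the cerebral cortex of C57BL/6J mice at postnatal day 25, with the medial cortex removed and the tissue frozen. There were 4 wild type (WT) libraries and 4 libraries from animals heterozygous for Chd8 (Chd8het), a chromatin remodeller gene, each library from 1 animal, and each genotype had 2 males and 2 females. The sources used here do not describe how the Chd8 allele was made. Libraries numbered 1 were single-indexed and those numbered 2 dual-indexed, so that index type was balanced over genotype, and the labels call the animals pairs matched for litter and sex without saying which animals make a pair.

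Totals ran from 69503598 to 98132783 unique molecular identifiers (UMIs) per library, and 27 to 63 cell barcodes were shared between any 2 libraries. Chd8 itself, the gene of the design, was at 74.9 (male 1), 81.3 (male 2), 79.8 (female 1) and 79.6 CPM (female 2) in WT, where CPM are counts per 1000000 UMIs. In Chd8het it was at 76.0, 89.6, 77.8 and 77.5 CPM, and values of single libraries are given in this order throughout. Its log2 change was -0.01 (SE 0.07, adjusted p = 1 by edgeR's quasi-likelihood test with Benjamini-Hochberg adjustment), so its count did not separate the genotypes. Since the allele is not described, whether reads of this gene could show it is unknown, and genotype rests on the labels throughout.

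Each nucleus was assigned to a type from fixed lists of marker genes that held none of the 44 genes, and the names below mean resemblance by those markers only. Of 77890 nuclei kept, 56284 (72.3%) received 1 of 20 types, and the 15 types with at least 30 nuclei in every library were tested. They were 6 excitatory types (L2/3, L4/5, deep and Car3 intratelencephalic or IT, L5/6 near-projecting or NP, and L6 corticothalamic or CT), 4 inhibitory types (Pvalb, Sst, Vip and Lamp5), and astrocyte-, oligodendrocyte-, oligodendrocyte precursor (OPC)-, microglia- and fibroblast-like nuclei. The Sst-like and Vip-like gates had 43.3% and 44.2% of their nuclei near a cut, and 3 of the 10 leading genes of Sst-like nuclei (Synpr, Reln and Npy) were listed markers of other classes. Microglia-like nuclei serve below as a reference for neuronal RNA that reaches other nuclei. They had a median of 1452 UMIs, against 9170 in L2/3 IT-like nuclei. The same number of stray UMIs makes a larger CPM in them, so their level is not a floor for neuronal types.

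Levels are given as CPM within a type, as the mean over the 8 libraries with the SD, or as the lowest, median and highest library. They compare types for the same gene. They do not compare genes with each other, because the length of a nuclear transcript affects how many UMIs it yields. Of the 44 genes, 10 overlap another protein-coding gene, which leaves their values uncertain (Nrxn2, Lrrtm1, Lrrtm2, Lrrtm3, Tenm1, Adgrl1, Flrt1, Flrt3, Il1rapl2 and Lrfn1), since the sources used here do not say how the counting used strand. The 44 genes held between 123 and 6846273 UMIs each over all nuclei.

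Among the 15 tested types, the type of highest level was excitatory for 22 of the 44 genes, an interneuron type for 12 and non-neuronal for 10. Car3 IT-like nuclei, the smallest tested type with 30 to 66 nuclei per library, ranked first for 8 genes and OPC-like nuclei for 7. The libraries of the first type lay wholly above those of the next type for 7 genes (Nrxn2, Nlgn3, Tenm1, Adgrl3, Cntnap4, Ptprd and Il1rapl1). For the other 37 the ranges of the first and next types overlapped, so their order at the top is not resolved by these 8 libraries. Ranks and overlaps were computed for these 44 genes only, so the shares over all genes are not known.

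**Figure D1:**
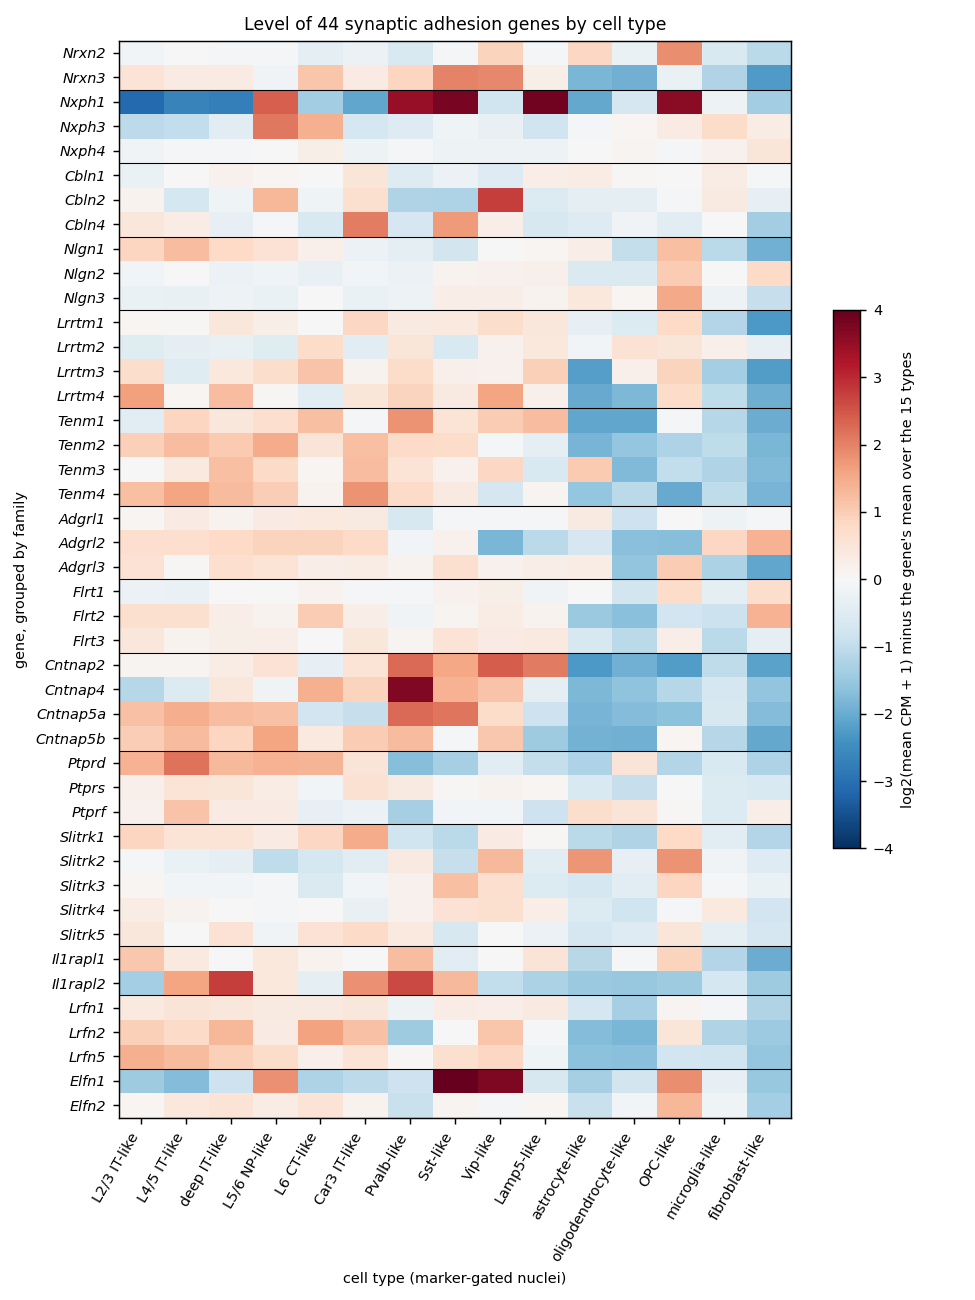
Mean level of the 44 genes (rows, grouped by family) in 15 cell types (columns), shown as log2(mean CPM + 1) over 8 libraries minus the gene's own mean over the types, so that red is above and blue below that gene's mean. Wide contrasts are seen for Nxph1, which ranged from 21.5 CPM in L2/3 IT-like to 2832 CPM in Lamp5-like nuclei, and Elfn1, at 167 CPM in Sst-like and 1.8 CPM in L4/5 IT-like nuclei.

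Differences between types were tested in 5 contrasts across all 14239 genes past the filter on counts, with each library as a block, and a gene was called at an adjusted p under 0.05 with a log2 difference of at least 1. Of the 44 genes 42 entered these tests, and Nxph4 and Cbln1 did not because of low counts. The first comparison set the mean of the 4 inhibitory types against that of the 6 excitatory types.

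In interneurons 4 genes were higher and 5 were lower, while 6.13% and 7.73% of all genes were called in these directions, and 33 of the 42 were not called. The higher genes were Nxph1, a secreted neurexin ligand, with a log2 difference of 4.13 (SE 0.13, adjusted p = 4.59e-55), Elfn1 with 2.47 (SE 0.17, adjusted p = 1.77e-26), Cntnap2 with 1.71 (SE 0.06, adjusted p = 1.3e-53) and Cntnap4 with 1.21 (SE 0.08, adjusted p = 2.6e-26). The lower genes were the phosphatase Ptprd with -2.59 (SE 0.04, adjusted p = 9.34e-92), the latrophilin Adgrl2 with -1.65, Slitrk1 with -1.31, Lrfn2 with -1.24 and the teneurin Tenm4 with -1.16. All p-values of type differences are from edgeR's quasi-likelihood test with Benjamini-Hochberg adjustment. The median log2 difference of the 42 genes was -0.28 and that of all genes tested -0.01. On the inhibitory side these were a secreted ligand, an ELFN and a pair of contactin-associated proteins, and on the excitatory side a phosphatase hub, a latrophilin, a teneurin, a SLITRK and an LRFN.

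**Figure D2:**
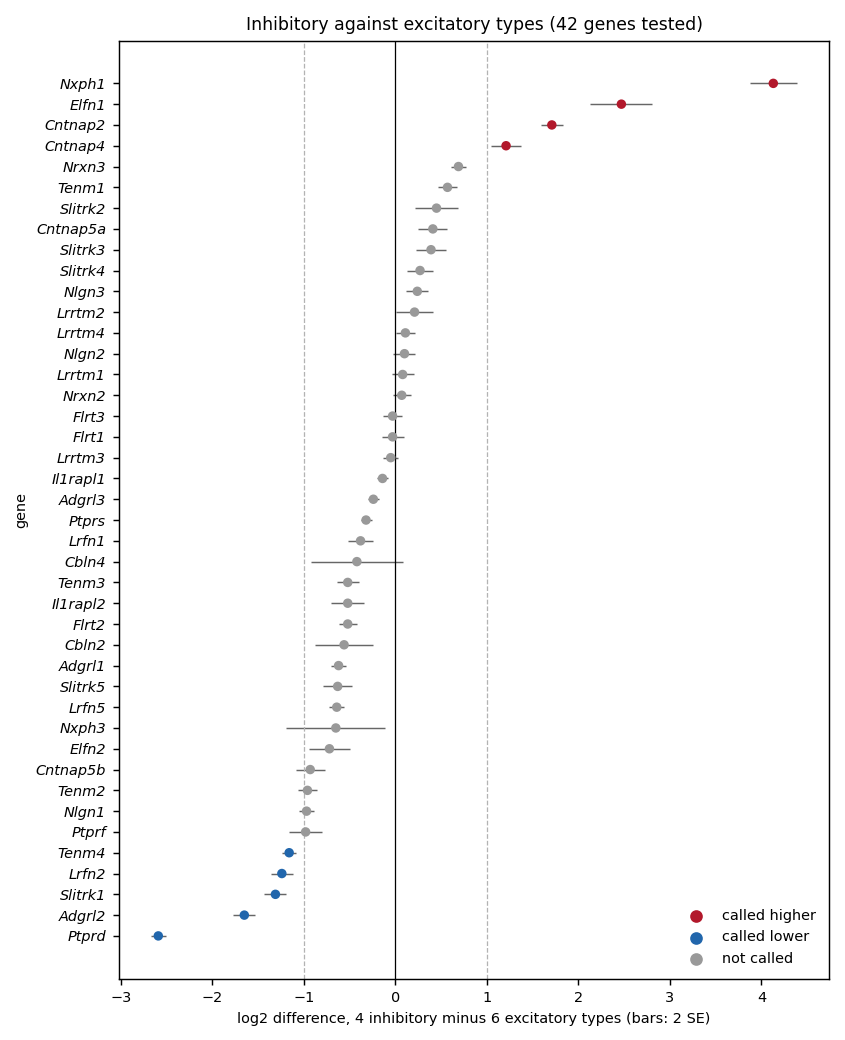
Log2 difference of the mean of 4 inhibitory types minus the mean of 6 excitatory types for the 42 genes tested (points, with bars of 2 SE); dashed lines mark the log2 difference of 1 needed for a call. Nxph1 at 4.13 and Ptprd at -2.59 stand at the ends of the axis.

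Promoter sequences are shown for a pair of genes called higher in interneurons (Cntnap2 and Elfn1) and a pair called lower (Slitrk1 and Tenm4), because the members of each pair move in the same direction between the neuron classes. RefSeq promoters on GRCm38.p6 were matched for 30 of the 44 genes, and the 250 bases before the outermost start in the RefSeq table were read. None of the 4 windows overlaps an exon of the GENCODE annotation, but that of Cntnap2 lies inside the gene as GENCODE annotates it, downstream of its GENCODE start. Capitals mark CG dinucleotides, the sites at which vertebrate DNA is mainly methylated, and each sequence runs 5′ to 3′ on the gene's strand.
Cntnap2 (chr6:45059811-45060060, + strand): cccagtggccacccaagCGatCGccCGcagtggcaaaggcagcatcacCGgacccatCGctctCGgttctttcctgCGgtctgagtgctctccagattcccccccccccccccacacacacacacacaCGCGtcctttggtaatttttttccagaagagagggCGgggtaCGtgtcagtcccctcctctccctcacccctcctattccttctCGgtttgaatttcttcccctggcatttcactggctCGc
Elfn1 (chr5:139907616-139907865, + strand): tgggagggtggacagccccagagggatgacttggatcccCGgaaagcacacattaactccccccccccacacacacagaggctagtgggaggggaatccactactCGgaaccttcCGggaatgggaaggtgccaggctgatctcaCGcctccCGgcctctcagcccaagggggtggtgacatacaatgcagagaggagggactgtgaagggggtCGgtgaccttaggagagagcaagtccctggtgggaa
Slitrk1 (chr14:108914240-108914489, - strand): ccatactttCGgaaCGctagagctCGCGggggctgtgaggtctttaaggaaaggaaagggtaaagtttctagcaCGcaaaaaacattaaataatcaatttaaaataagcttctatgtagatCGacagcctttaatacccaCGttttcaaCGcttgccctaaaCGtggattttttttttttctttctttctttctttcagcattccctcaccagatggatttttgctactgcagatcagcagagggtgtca
Tenm4 (chr7:96170994-96171243, + strand): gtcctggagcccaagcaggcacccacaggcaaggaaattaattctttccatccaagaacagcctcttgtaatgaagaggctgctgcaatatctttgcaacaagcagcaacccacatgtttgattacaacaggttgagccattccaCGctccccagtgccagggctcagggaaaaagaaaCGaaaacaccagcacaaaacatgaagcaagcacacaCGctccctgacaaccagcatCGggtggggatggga

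The windows hold 13 (Cntnap2), 6 (Elfn1), 9 (Slitrk1) and 4 (Tenm4) CG dinucleotides, with a G and C share of 59.6%, 60.8%, 40.4% and 50.8%. Over the 30 matched genes the median was 9 CG dinucleotides (range 0 to 36), and over the 27025 genes of the promoter table it was 6. The core TAATTA, a palindrome bound by many homeodomain factors, was found in 1 of the 30 windows (Tenm3) and in 4.91% of all windows of that length. The TATA box core TATAAA, on either strand, was found in 3 of 30 (Adgrl2, Lrrtm4 and Tenm1) and in 13% of all. These matches describe the letters only.

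Among presynaptic hubs, Ptprd lies on chromosome 4 (75941238 to 78211961, - strand) and was highest in L4/5 IT-like nuclei at 22975 ± 1431 CPM (SD, n = 8 libraries), where the lowest, median and highest libraries were 21156, 22766 and 25036 CPM. The next type, L2/3 IT-like, ran from 12209 to 14428 CPM, so the ranges did not meet. In Pvalb-like nuclei the lowest, median and highest libraries were 1390, 1595 and 1773 CPM, under the microglia-like level of 3367 ± 421 CPM. Sst-like (2034 CPM), Lamp5-like (2643 CPM) and Vip-like nuclei (3805 CPM) were all lower than any excitatory type, of which Car3 IT-like nuclei were the lowest at 7246 ± 1961 CPM. Oligodendrocyte-like nuclei, at 7360 ± 395 CPM, stood above the other glial types. Of the related phosphatases, Ptprs ran from 112 CPM in oligodendrocyte-like to 330 CPM in Car3 IT-like nuclei, and Ptprf from 10.8 CPM in Pvalb-like to 65.5 CPM in L4/5 IT-like nuclei, over the tested types.

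Nrxn3, a neurexin on chromosome 12 (88722876 to 90334935, + strand), was highest in Sst-like nuclei at 14413 ± 881 CPM and Vip-like nuclei at 13715 ± 1323 CPM. The library ranges of these types overlapped, 13171 to 15924 and 12259 to 15326 CPM, and both lay above those of all other tested types, of which L6 CT-like nuclei came next at 7435 to 8271 CPM. Lamp5-like nuclei, at 4251 ± 871 CPM, and Pvalb-like nuclei, at 6621 ± 259 CPM, did not share the high level. Nrxn2 had another pattern, with 591 ± 45.1 CPM in OPC-like nuclei, 297 ± 29.3 CPM in Vip-like and 285 CPM in astrocyte-like nuclei, and 104 CPM in Pvalb-like nuclei.

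Among the secreted partners, Nxph1 (chromosome 6, 8948431 to 9249032, + strand) was high in some interneuron types and in OPC-like nuclei. Its lowest, median and highest libraries were 2438, 2743 and 3536 CPM in Lamp5-like nuclei, 2256, 2783 and 3016 CPM in Sst-like nuclei, 1887, 2191 and 2405 CPM in Pvalb-like nuclei and 2239, 2392 and 2557 CPM in OPC-like nuclei. In Vip-like nuclei they were 66.9, 98.4 and 174 CPM, no higher than the microglia-like range of 67.6 to 323 CPM and below every library of the other interneuron types. L5/6 NP-like nuclei were the exception among excitatory types, with 387, 1033 and 1707 CPM, and the other 5 excitatory types had means of 21.5 to 73.5 CPM.

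Nxph3 was detected in deep-layer types, at 14.5 ± 3.36 CPM in L5/6 NP-like and 8.7 ± 1.5 CPM in L6 CT-like nuclei, and at 18 ± 9.61 CPM in the 334 L6b-like nuclei that were too few to test. In L2/3 IT-like nuclei its mean was 0.763 CPM, below the microglia-like mean of 5.1 CPM. Nxph4 was low everywhere but in L6b-like nuclei, at 8.9 CPM (19 UMIs), and mural-like nuclei, at 7.53 CPM (4 UMIs). Both are untested types of few nuclei, and in mural-like nuclei 5 of the 8 libraries were at 0 for this gene. Cbln2 stood out in Vip-like nuclei, with 17.6, 49.0 and 59.7 CPM as the lowest, median and highest libraries, above 15.8 ± 4.18 CPM in L5/6 NP-like nuclei in all 8 libraries although the ranges met. Cbln4 rested on few counts, 35 UMIs in Sst-like nuclei (7.63 ± 2.61 CPM) and 29 UMIs in Car3 IT-like nuclei (9.88 ± 7.19 CPM), and Cbln1 did not exceed 1.01 CPM in any tested type.

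On the postsynaptic side, Nlgn1, a neuroligin on chromosome 3, was at 5822 ± 170 CPM in L4/5 IT-like nuclei and 5694 ± 265 CPM in OPC-like nuclei, a pair not resolved by their ranges. It was lower in Pvalb-like (1930 CPM) and Sst-like (1462 CPM) nuclei, and its inhibitory against excitatory log2 difference of -0.97 (SE 0.04, adjusted p = 2.32e-49) just missed the size needed for a call. Nlgn2, which is known for its place at inhibitory synapses, was highest in OPC-like nuclei at 79.3 ± 12.5 CPM, and its means in the 10 neuronal types lay between 31.0 and 44.2 CPM. Nlgn3 was likewise highest in OPC-like nuclei, at 84.9 ± 11.2 CPM against 39.4 ± 5.13 CPM in astrocyte-like nuclei, with no overlap of libraries.

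Lrrtm4, a postsynaptic neurexin and heparan sulphate partner, was highest in L2/3 IT-like (7009 ± 472 CPM) and Vip-like nuclei (6657 ± 784 CPM), whose ranges overlapped, and lowest among neurons in L6 CT-like nuclei at 1641 ± 155 CPM. Lrrtm3, by contrast, was highest in L6 CT-like nuclei at 859 ± 159 CPM, above Lamp5-like nuclei (752 ± 87 CPM) in all 8 libraries with overlapping ranges, and at 277 CPM in L4/5 IT-like nuclei. Lrrtm3 overlaps the catenin gene Ctnna3. Lrfn2 and Lrfn5, postsynaptic leucine-rich proteins, peaked in different layers: Lrfn2 in L6 CT-like nuclei at 281 ± 82.6 CPM and Lrfn5 in L2/3 IT-like nuclei at 1953 ± 117 CPM.

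Elfn1, an organiser that binds metabotropic glutamate receptors across the cleft, lies on chromosome 5 (139907943 to 139974722, + strand). Its lowest, median and highest libraries were 130, 167 and 215 CPM in Sst-like nuclei and 93.7, 113 and 183 CPM in Vip-like nuclei, overlapping ranges with Sst-like above Vip-like in all 8 libraries. In Pvalb-like nuclei they were 1.75, 4.29 and 6.48 CPM, a mean of 4.22 CPM beside a microglia-like mean of 6.36 CPM. L5/6 NP-like (32.4 ± 9.63 CPM) and OPC-like nuclei (33 ± 10.1 CPM) were intermediate, as were the few striatal neuron-like nuclei (55.4 ± 51.6 CPM). Elfn1 was also among the 10 leading genes of Sst-like nuclei although it took no part in the gate. Its relative Elfn2 did not follow it, with 42.9 ± 6.57 CPM in OPC-like nuclei and 15.6 to 17.7 CPM in Vip- and Sst-like nuclei.

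Il1rapl2, a postsynaptic partner of the LAR-type phosphatases on chromosome X (137570608 to 138846946, + strand), was highest in deep IT-like nuclei (1265, 1817 and 1999 CPM as the lowest, median and highest libraries) and Pvalb-like nuclei (1296, 1608 and 1887 CPM). Car3 IT-like (899 CPM), L4/5 IT-like (760 CPM) and Sst-like nuclei (625 CPM) followed, while L2/3 IT-like nuclei (98.8 CPM) were below the microglia-like mean of 154 CPM. Il1rapl1 was high in both Pvalb-like (4886 ± 192 CPM) and L2/3 IT-like nuclei (4417 ± 156 CPM). Among SLITRKs, Slitrk1 was highest in Car3 IT-like nuclei (89.2 ± 16.7 CPM), Slitrk3 in Sst-like nuclei (43.3 ± 9.85 CPM), and Slitrk2 in OPC-like (42.4 ± 5.73 CPM), astrocyte-like (41.4 ± 5.5 CPM) and Vip-like nuclei (29.2 ± 10.1 CPM).

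Teneurins bind latrophilins across the cleft, and FLRTs bind latrophilins as well. Tenm1 was highest in Pvalb-like nuclei (1089 ± 95.7 CPM), with no overlap with Lamp5-like nuclei (738 ± 86.1 CPM), and at 232 CPM in L2/3 IT-like nuclei. Tenm4 was highest in Car3 IT-like nuclei (1489 ± 396 CPM), and Tenm2 in L5/6 NP-like nuclei (4720 ± 919 CPM). Tenm3 was at similar levels in Car3 IT-like (652 ± 270 CPM) and deep IT-like nuclei (640 ± 55.6 CPM) and reached 570 CPM in astrocyte-like nuclei. The latrophilin Adgrl2 was at 149 to 173 CPM in the excitatory types, close to 166 CPM in microglia-like nuclei, at 25.6 ± 8.46 CPM in Vip-like and 44.1 ± 10.2 CPM in Lamp5-like nuclei, and at 248 ± 75.7 CPM in fibroblast-like nuclei. It was highest, at 413 ± 106 CPM, in the 418 endothelial-like nuclei, an untested type. Flrt2 was highest in fibroblast-like nuclei (623 ± 136 CPM), whereas Adgrl3 was highest in OPC-like nuclei (2099 ± 107 CPM).

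Among contactin-associated proteins, Cntnap4 (chromosome 8, 112570043 to 112882717, + strand) had 783, 921 and 1057 CPM as its lowest, median and highest libraries in Pvalb-like nuclei, a mean 4.97 times that of the next type, L6 CT-like nuclei (185 ± 76.4 CPM). Cntnap2 (chromosome 6, 45059357 to 47304213, + strand) was at 9397 ± 1637 CPM in Vip-like, 8462 ± 608 CPM in Pvalb-like, 7362 ± 677 CPM in Lamp5-like and 5116 ± 662 CPM in Sst-like nuclei, and between 1390 and 2616 CPM in the 6 excitatory types. Cntnap5a was high in a pair of interneuron types, with 1696 ± 108 CPM in Pvalb-like and 1543 ± 178 CPM in Sst-like nuclei, and at 196 CPM in Lamp5-like nuclei.

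**Figure D3:**
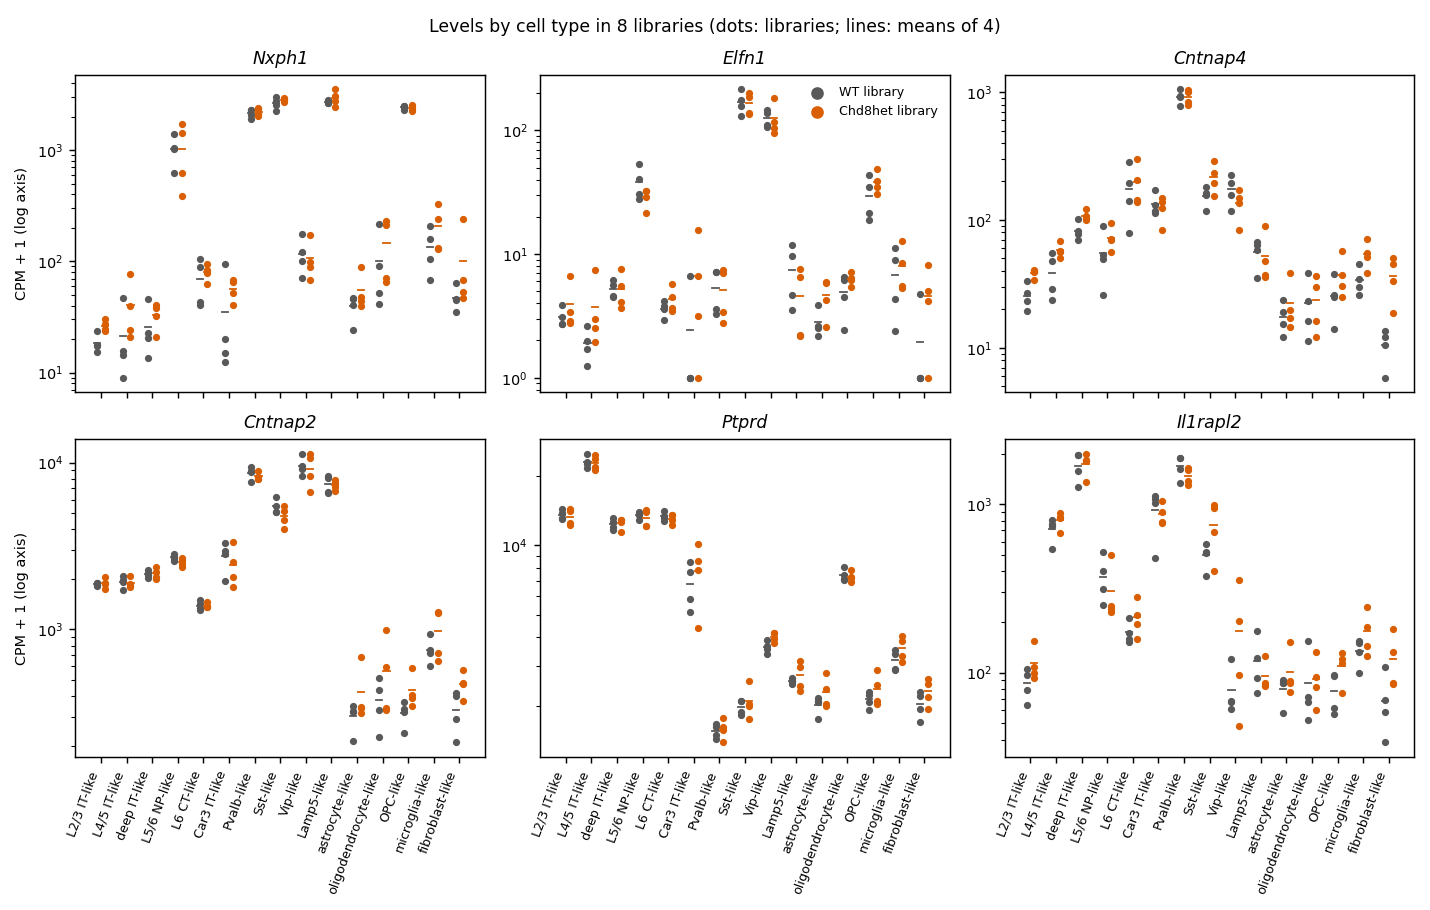
Level of 6 genes in each of the 15 types (CPM + 1 on a log axis), with 1 dot per library and a line for the mean of the 4 libraries of a genotype. Nxph1 sits between 1887 and 3536 CPM in every library of the Pvalb-, Sst- and Lamp5-like types and at no more than 174 CPM in Vip-like nuclei.

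Within interneurons, the Pvalb- and Sst-like types, which descend from the medial ganglionic eminence (MGE), were set against the Vip- and Lamp5-like types of the caudal eminence (CGE) in the second comparison. In the MGE types 6 genes were higher and 3 lower, where 4.12% and 5.55% of all genes were called. The higher genes were Il1rapl2 (log2 difference 3.15, SE 0.15), Cntnap5a (2.28, SE 0.12), Cntnap4 (2.22, SE 0.13), Nxph1 (2.16, SE 0.18), Adgrl2 (1.5, SE 0.12) and Tenm2 (1.03, SE 0.08). The lower were Cbln2 (-2.76, SE 0.3), Lrfn2 (-1.22, SE 0.1) and Slitrk1 (-1.12, SE 0.12). The adjusted p-values of these 9 genes were at most 9.52e-14. For Nxph1, Cbln2 and Cntnap4 the contrast averages unlike types, since Lamp5-like nuclei were as high in Nxph1 as the MGE types, Cbln2 was high in Vip-like nuclei alone among interneurons, and Cntnap4 was at 919 CPM in Pvalb-like but 184 CPM in Sst-like, 153 CPM in Vip-like and 53.4 CPM in Lamp5-like nuclei. The inhibitory calls of Cntnap4, Elfn1 and Nxph1 likewise do not hold for each interneuron type: Elfn1 in Pvalb-like nuclei (4.22 CPM) and Nxph1 in Vip-like nuclei (111 CPM) were below the L5/6 NP-like means of 32.4 and 1026 CPM. For 4 of the 9 genes (Il1rapl2, Adgrl2, Cbln2 and Slitrk1) the types of the lower side were below the microglia-like mean, and for Adgrl2 those of the higher side too. On the lower side of the inhibitory contrast, types below it were 4 of 4 for Adgrl2, 3 of 4 for Ptprd, 2 of 4 for Slitrk1 and 1 of 4 for Lrfn2. They were 5 of 6 for Elfn1 and Nxph1, 1 of 6 for Cntnap4, and 0 for Cntnap2 and Tenm4. On the higher side, types below the microglia-like mean were 4 of 6 for Adgrl2, 2 of 4 for Elfn1, 1 of 4 for Nxph1 and 0 for the others. The part of stray RNA in the sizes of these differences was not tested.

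Between the Pvalb-like and Sst-like types, 8 genes were higher in Pvalb-like and 5 higher in Sst-like nuclei, where 5.36% and 5.73% of all genes were called. Elfn1 was higher in Sst-like nuclei (log2 difference -5.19, SE 0.2, adjusted p = 6.52e-47) and was followed by the secreted Cbln4 (-3.35, SE 0.47, adjusted p = 1.86e-09), Lrfn2 (-1.28), Ptprf (-1.24) and Nrxn3 (-1.01). On the Pvalb-like side were Cntnap4 (2.45, SE 0.16, adjusted p = 1.99e-27), Il1rapl1 (1.76, SE 0.07, adjusted p = 2.35e-43), Slitrk2 (1.51), Il1rapl2 (1.49), Cntnap5b (1.43), Tenm1 (1.38), Lrrtm2 (1.2) and Slitrk5 (1.15). For 7 of the 13 (Elfn1, Cbln4, Lrfn2, Ptprf, Slitrk2, Lrrtm2 and Slitrk5) the lower type was below the microglia-like mean. The part of stray RNA in the sizes of these differences was not tested. Both IL1RAPL genes were higher in Pvalb-like nuclei, while their partner Ptprd was at 1571 and 2034 CPM in the 2 types and was not called.

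Between the deep and upper excitatory types, 5 genes were higher in L6 CT-like and 6 in L2/3 IT-like nuclei, where 4.28% and 5.71% of all genes were called. Higher in L6 CT-like nuclei were Nxph3 (log2 difference 3.38, SE 0.16, adjusted p = 2.71e-40), Cntnap4 (2.45, SE 0.15), Nxph1 (1.72, SE 0.23), Tenm1 (1.55, SE 0.1) and Lrrtm2 (1.22, SE 0.07). Higher in L2/3 IT-like nuclei were Lrrtm4 (-2.18, SE 0.11, adjusted p = 1.27e-38), Cntnap5a (-2.03, SE 0.16), Cbln4 (-1.84, SE 0.23), Lrfn5 (-1.29, SE 0.08), Tenm4 (-1.11, SE 0.09) and Il1rapl1 (-1.01, SE 0.07). For 6 of the 11 (Nxph3, Cntnap4, Nxph1, Lrrtm2, Cntnap5a and Cbln4) the lower type was below the microglia-like mean, and Nxph1 was below it in both types (73.5 and 21.5 CPM against 170 CPM). The part of stray RNA in these sizes was likewise not tested. The teneurins were split, with Tenm1 on the deep side and Tenm4 on the upper side.

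The last comparison of types set the mean of astrocyte-, oligodendrocyte-, OPC- and microglia-like nuclei against that of the 10 neuronal types. None of the 42 genes was higher in glia and 21 were lower, where 15.5% and 13.1% of all genes were called. By adjusted p alone, with no minimum size, 4 were higher in glia, where 45.4% of all genes were (Slitrk2 at 0.87, Nxph3 at 0.47, Nlgn3 at 0.32 and Nrxn2 at 0.31). The lowest differences were those of Cntnap2 (-3.1, SE 0.07, adjusted p = 6.12e-75), Cntnap5a (-2.48, SE 0.08), Tenm2 (-2.43, SE 0.05), Tenm4 (-2.42, SE 0.05), Tenm1 (-2.32, SE 0.05) and Nrxn3 (-2.29, SE 0.04, adjusted p = 4.25e-82). The mean over glia hides OPC-like nuclei, which ranked first for 7 genes: Nrxn2, Nlgn2, Nlgn3, Adgrl3, Flrt1, Slitrk2 and Elfn2. Their library ranges were apart from the next type only for Nrxn2, Nlgn3 and Adgrl3. For Flrt1 they were above fibroblast-like nuclei in 2 of 8 libraries, and for Slitrk2 above astrocyte-like nuclei in 4 of 8.

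Of the 48 other genes on the wider list, 45 were tested, and 5 were higher and 11 lower in inhibitory types, where 6.13% and 7.73% of all genes were called. Cntnap5c (3.02, SE 0.09) and Cntnap3 (2.8, SE 0.15), further contactin-associated proteins, were the highest, and the netrin-G gene Ntng2 (-3.34, SE 0.15) and the neurexin and neuroligin antagonist Mdga1 (-1.94, SE 0.21) the lowest. Between Pvalb- and Sst-like nuclei 9 were higher and 4 lower (5.36% and 5.73% of all genes), and Lrrc4c, a netrin-G ligand, was the highest (3.18, SE 0.11). Between L6 CT- and L2/3 IT-like nuclei 5 were higher and 9 lower (4.28% and 5.71% of all genes), led by the neurexophilin Nxph2 (4.38, SE 0.21) and the FLRT partner Unc5d (-3.23, SE 0.15). MGE against CGE types had 4 higher and 4 lower (4.12% and 5.55% of all genes), led by Nxph2 (4.59, SE 0.42) and Il1rap (-2.75, SE 0.1), and glia against neurons had 1 higher (Unc5b) and 16 lower (15.5% and 13.1% of all genes).

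The study's comparison is that of Chd8het with WT, here for each type on UMI counts summed per library, with sex in the model. No gene of the 44 was called in any of the 15 types at adjusted p under 0.05 by edgeR's quasi-likelihood test, and 0.0% of the 163229 tests of all genes were called. The tests numbered 571 over 42 genes, and the smallest adjusted p was 0.711, which does not show that the genes were unchanged. At an unadjusted p under 0.05 there were 40 of the 571, 35 of them higher in Chd8het, where 2.47% of all tests passed (1.4% higher and 1.07% lower). By DESeq2's Wald test 0 were called as well, and 31 passed p under 0.05 before adjustment, where 1.14% of all tests did. With index type as a term, edgeR called 0 as well, with 77 at an unadjusted p under 0.05 (59 higher and 18 lower) where 5.49% of all tests passed (2.87% higher and 2.63% lower), and the smallest adjusted p was 0.118.

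Summed over all kept nuclei of a library, where changes of cell makeup and of RNA per cell cannot be told apart, 0 of 44 genes were called and 0 had an unadjusted p under 0.05 by edgeR (1.41% of all genes) or by DESeq2 (1.43%). With the index term 0 were called and 2 passed before adjustment, 1 in each direction, where 5.63% of all genes did. The log2 changes ran from -0.23 to 0.44, with a median of -0.01. A test of whether the change differs between sexes called none of 571 (0), and 14 passed p under 0.05 before adjustment, where 1.64% of all tests did.

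**Figure D4:**
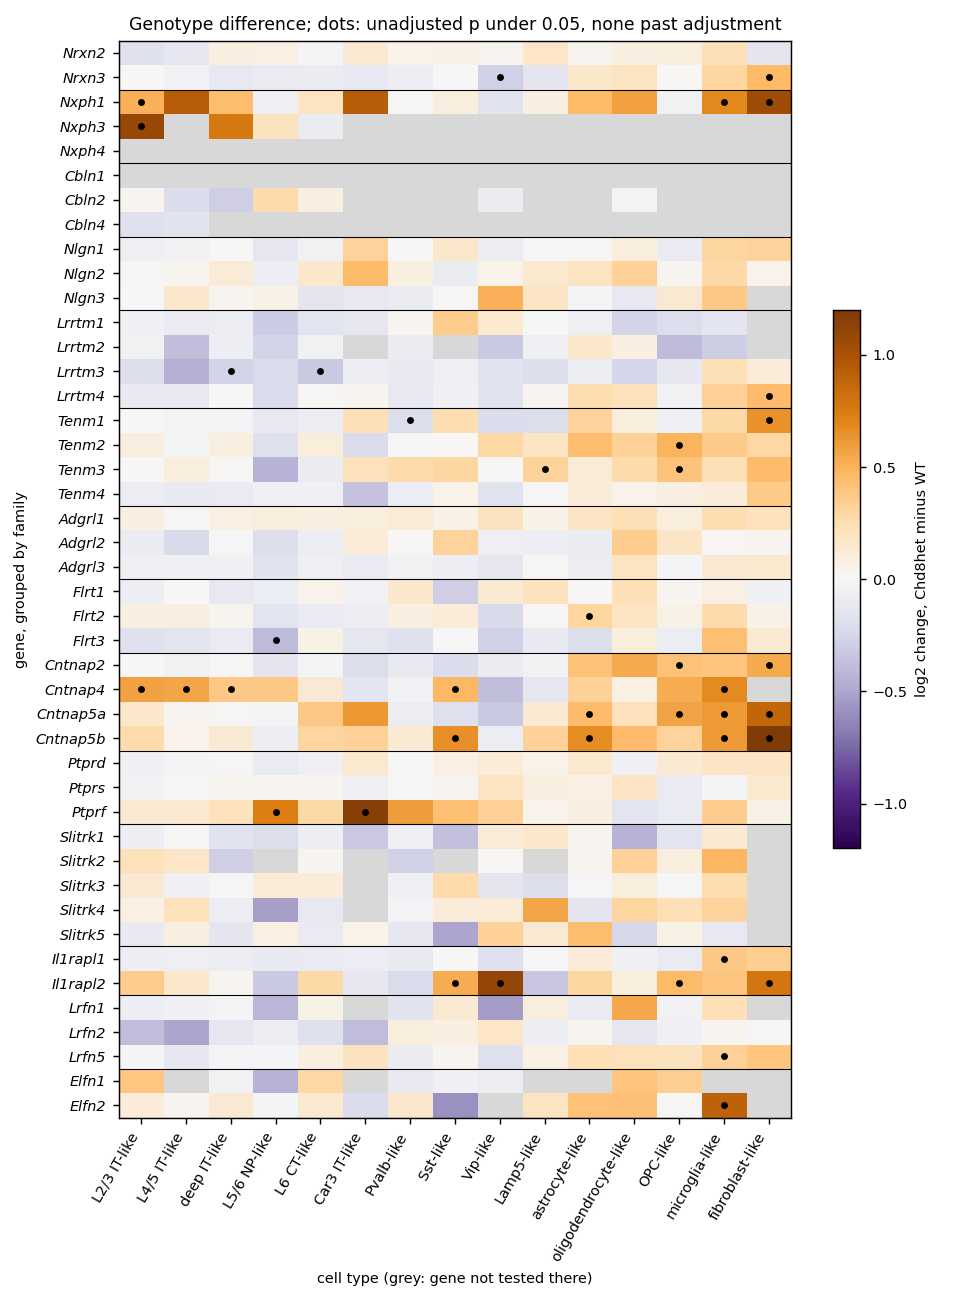
Log2 change of Chd8het minus WT for each gene (rows) in each of the 15 types (columns), grey where the gene was not tested. Dots mark the 40 tests with an unadjusted p under 0.05, none of which passed adjustment, and 23 of them are in the 5 non-neuronal types at the right, all higher in Chd8het.

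The unadjusted results were unevenly placed over the types. In the 10 neuronal types 12 of 389 tests were higher and 5 lower, against 1.25% and 0.992% of all tests, and the median log2 change was -0.02. With the index term these counts were 23 higher and 17 lower, against 2.66% and 2.7% of all tests. In the 5 non-neuronal types 23 of 182 were higher and 0 lower, against 1.72% and 1.23% of all tests, and the median was 0.17 where that of all genes was 0. With the index term 36 were higher and 1 lower, against 3.33% and 2.48%. By type the median of the 44 genes' tested members was 0.29 in fibroblast-like, 0.28 in microglia-like, 0.19 in oligodendrocyte-like, 0.11 in astrocyte-like and 0.04 in OPC-like nuclei. The types share their animals and libraries, so these counts are not independent of each other.

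Genes that are lower in glia than in neurons, other than the 44, moved with this result. In microglia-like nuclei 1091 such genes had a median log2 change of 0.16, with 6.32% higher and 0.0917% lower at an unadjusted p under 0.05. In fibroblast-like nuclei the median was 0.13 (7.18% higher and 2.82% lower of 710), and it was 0.15 in oligodendrocyte-like, 0.12 in astrocyte-like and 0.05 in OPC-like nuclei. The summed level of the 6 listed excitatory markers in microglia-like nuclei was 1050 to 1468 CPM in WT and 1243 to 1442 CPM in Chd8het, with 4 of 6 higher in Chd8het. In fibroblast-like nuclei it was 657 to 911 CPM in WT and 718 to 814 CPM in Chd8het, with 3 of 6 higher, and in astrocyte-like nuclei 668 to 896 and 837 to 977 CPM, with 6 of 6 higher. All 6 were also higher in oligodendrocyte-like nuclei (551 to 754 CPM in WT and 677 to 951 CPM in Chd8het) and in OPC-like nuclei (1025 to 1260 and 1141 to 1285 CPM). None of the 6 markers was at 0 in these types. These markers also took part in the gates. Nuclei whose excitatory score came near their own-type score were left out, so the assignment limits this level in both genotypes. The part of stray neuronal RNA in the changes of non-neuronal types was not tested.

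The 20 results of smallest unadjusted p, with no more than 2 types for a gene, held 19 higher and 1 lower in Chd8het. Picking by small p favours results in which the libraries of the genotypes do not overlap. None was called. In each of the 20 the sign was the same among the single-indexed as among the dual-indexed libraries. Picking by small p on these same libraries favours that too, so it is no separate check of index type. The share over all tests is not given here.

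Cntnap4 in L2/3 IT-like nuclei, a type in which it is low, was at 25.7, 18.5, 32.1 and 22.3 CPM in WT and at 39.3, 38.8, 38.2 and 32.8 CPM in Chd8het. All 4 Chd8het libraries were above all WT libraries, with a log2 change of 0.58 (SE 0.16, unadjusted p = 0.00703, adjusted p = 1 by edgeR). With a replicate block the log2 change was 0.59, with an adjusted p of 0.398 by edgeR and of 0.0221 by DESeq2, an alternative added after seeing the data, so the call depends on the tool and the block. The L2/3 IT-like level was below that of microglia-like nuclei, where Cntnap4 was at 33.1 ± 8.48 CPM in WT and 53.2 ± 13.3 CPM in Chd8het (SD, n = 4 each; log2 change 0.68, SE 0.24), higher in 4 of 4 pairs, and the part of stray RNA was not tested. In deep IT-like nuclei it was 69.1, 80.5, 100 and 76.6 CPM in WT and 103, 120, 99.0 and 106 CPM in Chd8het, with a log2 change of 0.38 (SE 0.12), and the groups overlapped by 1 library of each. In Pvalb-like nuclei, where Cntnap4 is highest, the log2 change was -0.04 (SE 0.09) and the groups overlapped.

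Il1rapl2 in Vip-like nuclei had the widest change of the 20, with a log2 value of 1.1 (SE 0.41, unadjusted p = 0.0153, adjusted p = 1 by edgeR). The WT libraries were at 59.7, 66.7, 66.0 and 119 CPM and the Chd8het libraries at 47.3, 202, 95.6 and 354 CPM, so Chd8het male 1 was the lowest of all 8 and a single library, female 2, was far above the rest. Without Chd8het female 2 the log2 change was 0.55, without Chd8het male 2 it was 0.72, and with a stricter gate it was 0.14. Without a filter on low counts its adjusted p in edgeR was 0.000733. In Sst-like nuclei Il1rapl2 was at 515, 373, 521 and 577 CPM in WT and 398, 680, 986 and 945 CPM in Chd8het, a log2 change of 0.53 (SE 0.17, unadjusted p = 0.00712, adjusted p = 0.999 by edgeR), higher in 3 of 4 pairs matched on sex and number.

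Cntnap5b, another contactin-associated gene, was at 93.4, 104, 70.4 and 127 CPM in WT and 147, 246, 131 and 114 CPM in Chd8het in Sst-like nuclei, with a log2 change of 0.65 (SE 0.22) that was 0.41 without Chd8het male 2. Cntnap4, which like Cntnap5b and Il1rapl2 is higher in Pvalb-like than in Sst-like nuclei, was at 180, 161, 116 and 156 CPM in WT and 152, 287, 194 and 230 CPM in Chd8het in Sst-like nuclei (log2 change 0.48, SE 0.19). Of the other genes called higher in Pvalb-like nuclei, Tenm1 changed by 0.25, Il1rapl1 by 0.005 and Slitrk5 by -0.503 in Sst-like nuclei. Slitrk2 and Lrrtm2 were not tested there. Genes called higher in Sst-like nuclei changed there by -0.047 (Elfn1), 0.082 (Lrfn2), -0.003 (Nrxn3) and 0.44 (Ptprf), and Cbln4 was not tested. Of the Sst-like nuclei 43.3% were near a cut. The summed level of the 6 excitatory markers in them was 453 to 575 CPM in WT and 469 to 671 CPM in Chd8het. That sum was higher in 4 of 4 pairs, with 3 of 6 markers higher. The part of stray RNA, or of nuclei near a cut, in the Sst-like changes was not tested. With a stricter gate, the changes of Il1rapl2 and Cntnap5b in Sst-like nuclei kept their sign. Neither is among the values listed at the end as moved by that gate. The Cntnap4 value in Sst-like nuclei with that gate is not given here. In astrocyte-like nuclei the 4 Chd8het libraries of Cntnap5b (35.0, 56.6, 34.3 and 48.7 CPM) were above the 4 WT libraries (16.9, 29.5, 31.8 and 30.3 CPM). Cntnap5a, a relative, was at 63.5, 82.2, 82.4 and 72.0 CPM in WT and 160, 144, 95.9 and 151 CPM in Chd8het in fibroblast-like nuclei, with no overlap, a log2 change of 0.88 (SE 0.23, unadjusted p = 0.00127, adjusted p = 0.711 by edgeR). Counts there were 17 to 50 UMIs per library. In microglia-like nuclei Cntnap5a was at 152 to 193 CPM in WT and 213 to 358 CPM in Chd8het, a log2 change of 0.62 (SE 0.17) that was 0.27 with predicted doublets kept.

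Ptprf in L5/6 NP-like nuclei was at 34.4, 21.4, 29.9 and 22.3 CPM in WT and 52.6, 48.3, 49.2 and 32.5 CPM in Chd8het, higher in all 4 pairs with groups that overlapped (log2 change 0.74, SE 0.21). The FLRT gene Flrt3 in the same nuclei was the 1 lower result, at 87.6, 75.5, 79.6 and 67.9 CPM in WT and 59.2, 51.9, 66.0 and 67.4 CPM in Chd8het, with no overlap (log2 change -0.4, SE 0.16, unadjusted p = 0.0242, adjusted p = 1 by edgeR).

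Neurexophilins in L2/3 IT-like nuclei, a type in which both are at or below the microglia-like level, were higher in Chd8het without overlap. Nxph1 was at 16.7, 14.3, 22.7 and 16.3 CPM in WT and 26.2, 29.2, 23.4 and 22.8 CPM in Chd8het (log2 change 0.52, SE 0.16). Nxph3 was at 0.247 to 0.743 CPM in WT and 0.861 to 1.23 CPM in Chd8het (log2 change 1.08, SE 0.36) on 120 UMIs in all. In fibroblast-like nuclei the Nxph1 change of 1.05 (SE 0.43) rested on Chd8het male 1, at 237 CPM against 52.0, 46.2 and 66.6 CPM in the other Chd8het libraries and 33.7 to 62.6 CPM in WT, and was 0.19 without that library and 0.33 with a stricter gate. In types where Nxph1 is high its log2 changes were 0.08 (Lamp5-like), 0.088 (Sst-like), 0.017 (Pvalb-like), -0.044 (OPC-like) and -0.057 (L5/6 NP-like). Among types where it is low they were 0.936 (Car3 IT-like), 0.933 (L4/5 IT-like), 0.444 (deep IT-like) and 0.19 (L6 CT-like). They were 0.687 in microglia-like, 0.576 in oligodendrocyte-like and 0.467 in astrocyte-like nuclei, and -0.167 in Vip-like nuclei. None was called, and the part of stray RNA in these changes was not tested.

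The teneurin Tenm3 in OPC-like nuclei was at 120, 151, 98.1 and 111 CPM in WT and 138, 191, 152 and 164 CPM in Chd8het (log2 change 0.41, SE 0.15, and 0.26 with predicted doublets kept), and in Lamp5-like nuclei at 151 to 178 and 178 to 224 CPM (0.31, SE 0.13). Flrt2 in astrocyte-like nuclei was at 69.9, 74.8, 78.6 and 75.7 CPM in WT and 90.9, 97.6, 97.5 and 89.6 CPM in Chd8het, a small difference (0.3, SE 0.11) with no overlap. Of the remaining results, Il1rapl1 in microglia-like nuclei was at 722 to 881 CPM in WT and 962 to 1145 CPM in Chd8het (0.38, SE 0.14). Elfn2 in the same nuclei was at 8.11 to 11.9 and 13.6 to 22.9 CPM (0.89, SE 0.33). It rested on 4 to 10 UMIs per library in WT and 9 to 18 in Chd8het. In fibroblast-like nuclei Nrxn3 was at 511 to 735 and 728 to 983 CPM (0.47, SE 0.18, and 0.27 with a stricter gate), and Cntnap2 at 209 to 413 and 373 to 570 CPM (0.54, SE 0.21, and 0.32 without WT male 1). All of these adjusted p-values were at least 0.952 by edgeR.

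**Figure D5:**
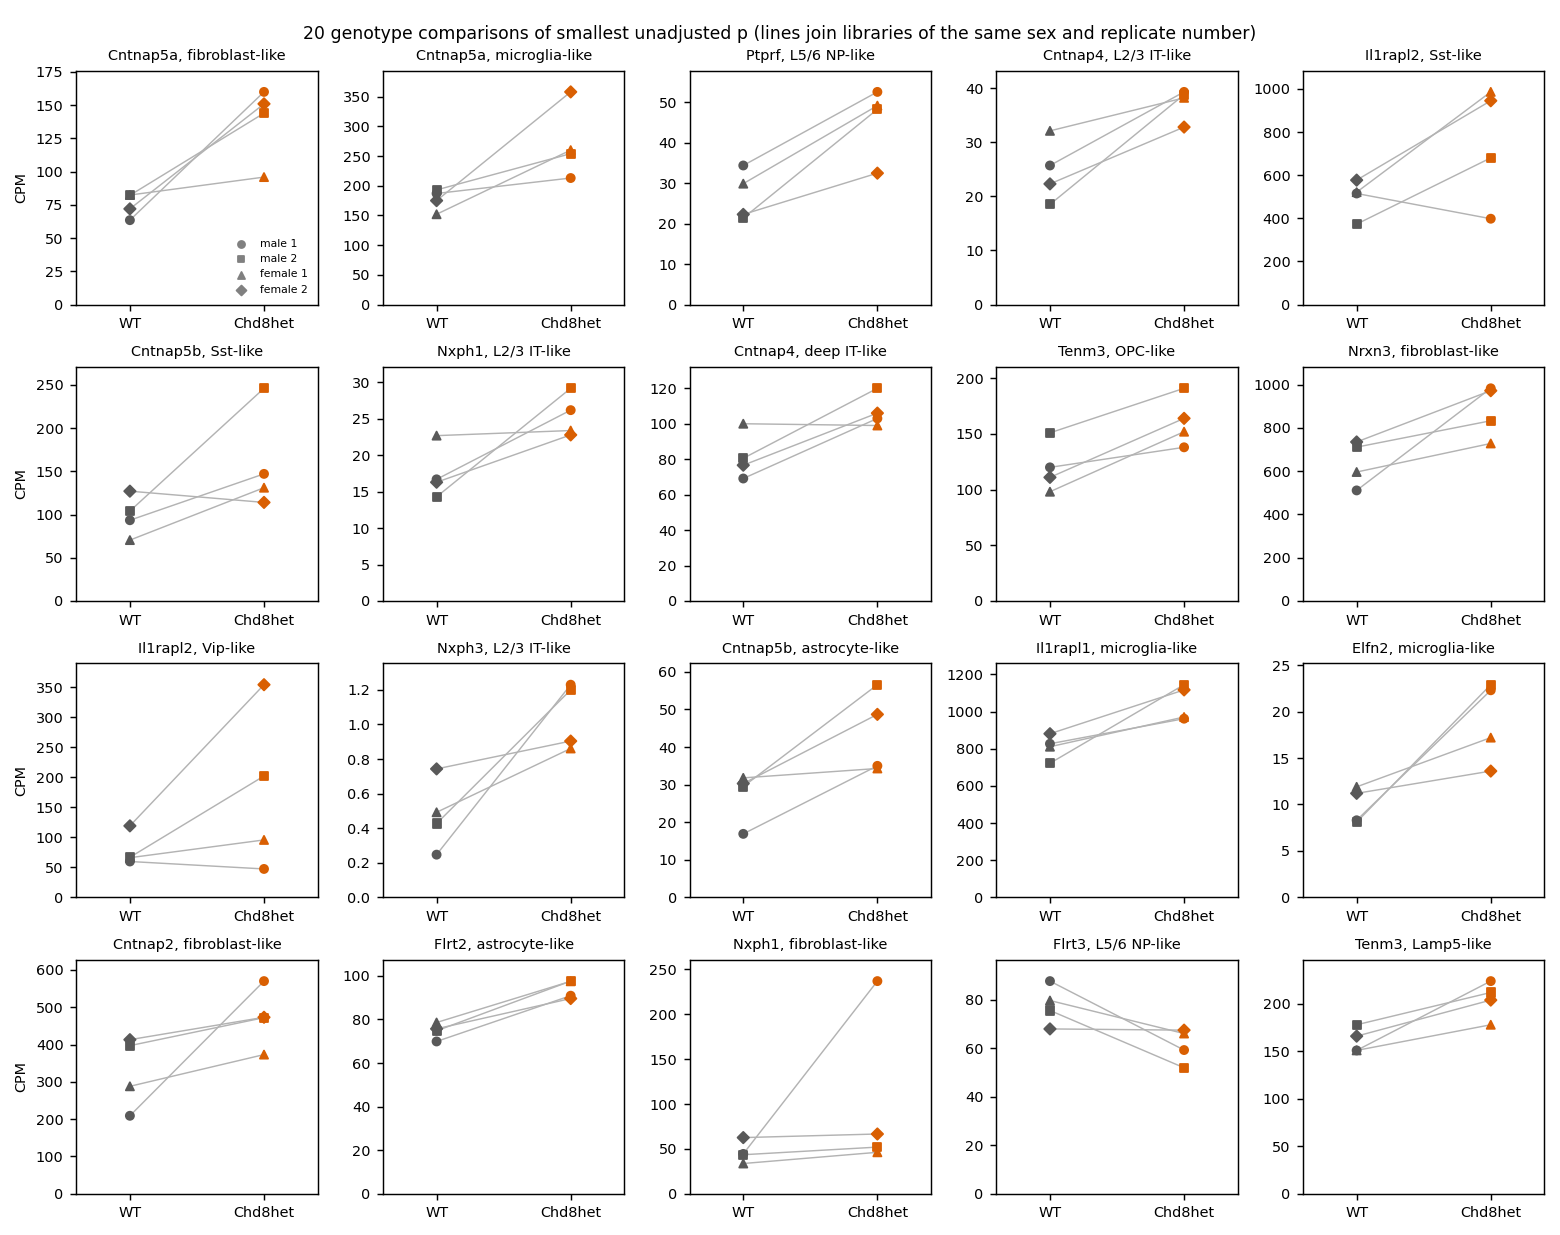
Level (CPM, axes from 0) of the 20 comparisons of smallest unadjusted p in each WT and Chd8het library, with lines joining libraries matched on sex and number (symbols). In 19 panels the Chd8het mean is above the WT mean, and single high libraries are seen for Nxph1 in fibroblast-like and Il1rapl2 in Vip-like nuclei.

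On the wider list of 48 genes, 45 were tested in 599 tests, with 0 called by edgeR and 31 at an unadjusted p under 0.05 (21 higher and 10 lower, where 1.4% and 1.07% of all tests passed). With the index term 0 were called and 89 passed before adjustment, 51 higher and 38 lower (2.87% and 2.63% of all tests). The 4 of smallest p were Cntn1, a contactin, in microglia-like nuclei (151 ± 9.48 CPM in WT and 228 ± 42.8 CPM in Chd8het, SD, n = 4 each), the netrin receptor Unc5c in fibroblast-like nuclei (719 ± 117 and 456 ± 148 CPM), Ntng1 in astrocyte-like nuclei (36.6 ± 4.99 and 61.2 ± 15.3 CPM) and Cntn6 in L2/3 IT-like nuclei (120 ± 13.0 and 152 ± 8.89 CPM). Their adjusted p-values were at least 0.892 by edgeR, and the WT and Chd8het libraries overlapped for Unc5c and did not for the other 3.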

How the data were processed

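The 44 genes, the wider list, the markers and the tests were chosen with earlier results of these data known. RNA of single nuclei (10x Genomics 3' v3 libraries) was measured in 8 libraries. The authors deposited raw UMI counts per gene and nucleus, with STAR 2.7.9a, STARsolo, Cell Ranger and the mm10 build named in the submitters' processing notes. Those notes give no role for each tool, and annotation version and strand setting are not given in the sources used here. Gene positions are from GENCODE M21 on mm10, which held 32158 of the 32285 gene IDs and all 44 genes. Of these, 34 overlap another annotated gene and 10 a protein-coding one.

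Of 97772 barcodes, 82168 had at least 500 genes and at most 5% mitochondrial UMIs, and 4278 (5.21%) were removed as predicted doublets (Scrublet in scanpy 1.11.5, expected rate 0.8% per 1000 nuclei). The median was 4970 to 7467 UMIs per kept nucleus, by library. Types were assigned per nucleus from marker scores, which left 13269 excitatory nuclei without a layer, 1504 inhibitory nuclei without a family and 6833 without any type. Counts were summed per library and type. Genotype was tested with edgeR 4.0.16 (quasi-likelihood, TMM, terms for sex and genotype) in R 4.3.3, after a filter at a minimum count of 10, with Benjamini-Hochberg adjustment over all genes of a type. Type contrasts used the library as a block. SEs are those of the fitted log2 values.

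The 20 genotype results given singly are those of smallest unadjusted p, with at most 2 types for a gene, and type results given singly are those past adjusted p 0.05 and a log2 difference of 1, beside 1 gene for each family. Alternatives were DESeq2 1.42.0, other scaling, filters and gates, a replicate block, an index term and leaving out each library. The genotype test (L2/3 IT- and Vip-like nuclei) and the Pvalb against Sst contrast were tested on simulated counts. Types with under 30 nuclei in a library were not tested. Promoter windows are from RefSeq, GRCm38.p6. The value of 1 gene of the wider list is not reported here.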

Additional observations from a re-analysis of the deposited data

Results flagged for a closer look

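In 4 of the 40 groups of 4 libraries behind the 20 genotype results, 1 library stood far from the other 3 by Dixon's criterion at the 95% level, which chance meets in about 1 group in 20. Cntnap4 in L2/3 IT-like nuclei was at 32.8 CPM in Chd8het female 2, with the other Chd8het libraries between 38.2 and 39.3 CPM, so this library was the nearest of its group to WT. Il1rapl2 in Vip-like nuclei was at 119 CPM in WT female 2 and at 59.7 to 66.7 CPM in the other WT libraries. Cntnap5b in astrocyte-like nuclei was at 16.9 CPM in WT male 1 and at 29.5 to 31.8 CPM in the other WT libraries. Nxph1 in fibroblast-like nuclei was at 237 CPM in Chd8het male 1 and at 46.2 to 66.6 CPM in the other Chd8het libraries, on 74 UMIs in that library.

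For 5 of the 14 genes with a result among the 20, Chd8het was above WT in all 4 pairs of libraries matched on sex and number in some types and below WT in all 4 in others. Among genes tested in all 15 types, 9 of 27 of the 44 genes (33.3%) and 1233 of all 4277 (28.8%) had values in both directions in this way. The differences between types were not tested, and none of the changes was called. Cntnap4 had log2 changes of 0.58 in L2/3 IT-like, 0.38 in L5/6 NP-like and 0.68 in microglia-like nuclei and of -0.38 in Vip-like nuclei. Il1rapl2 had 0.36 in L2/3 IT-like and 0.15 in L4/5 IT-like nuclei and -0.22 in Pvalb-like nuclei, the interneuron type in which it is highest. Nrxn3 had 0.16 in astrocyte-like and 0.47 in fibroblast-like nuclei and -0.12 in deep IT-like, -0.09 in L6 CT-like and -0.29 in Vip-like nuclei. Il1rapl1 had 0.11 in astrocyte-like and 0.38 in microglia-like nuclei and -0.1 in OPC-like nuclei. Cntnap2 had 0.41 in OPC-like and 0.54 in fibroblast-like nuclei and -0.21 in Sst-like nuclei.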

How the results depend on the processing

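The labels mention pairs matched for litter and sex but do not name the members of each pair, and same-numbered libraries also share the index type. Deviations of same-numbered libraries correlated at 0.068 to 0.637 over 16 sets of nuclei and 4 pairs, and only the second female pair in L5/6 NP-like nuclei was under 0.1. With the replicate block, edgeR called 0 of 571 tests of the 44 genes, with 84 at an unadjusted p under 0.05 (64 higher and 20 lower, where 3.16% and 2.82% of all tests passed) against 40 without it, and a smallest adjusted p of 0.0666 for Il1rapl2 in Vip-like nuclei. Over all genes it called 28 tests, where 0 were called without it. The replicate block in DESeq2, added after seeing the data, called 1 (Cntnap4 in L2/3 IT-like nuclei, 0.59, adjusted p = 0.0221). Over all genes that fit called 58 tests, where DESeq2 without the block called 3. Without a filter on counts edgeR called 1 of 649 (Il1rapl2 in Vip-like nuclei, 1.1, adjusted p = 0.000733) and 20 tests of all genes. The cause of these calls was not tested.

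By adjusted p alone, with no minimum size, 12 genes were higher and 22 lower in inhibitory types (27.7% and 31.1% of all genes), 12 and 11 in MGE types (17.1% and 14.8%), 15 and 14 in Pvalb-like nuclei (19.3% and 13.3%), 14 and 21 in L6 CT-like nuclei (23.9% and 24.3%), and 4 and 35 in glia (45.4% and 37.3%). Counts at an unadjusted p moved more with the replicate block. Those lower in neuronal types were 19 against 5, where 2.91% and 0.992% of all tests passed. Those over all nuclei were 3 against 0 by edgeR (6.38% of all genes against 1.41%) and by DESeq2 (4.18% against 1.43%). Those of the wider list were 99 (55 higher and 44 lower, where 3.16% and 2.82% of all tests passed) against 31. Of 193 recomputed counts of called genes 181 stayed within 1.5 times. All 181 recomputations of 14 type differences, the largest of each family, kept their direction and call. Of 359 recomputations of the 20 genotype changes none changed sign. The values moved by over 1.5 times with predicted doublets kept for Cntnap5a in microglia-like (0.27) and Tenm3 in OPC-like nuclei (0.26), for Nrxn3 and Nxph1 in fibroblast-like and Il1rapl2 in Vip-like nuclei with a stricter gate (0.27, 0.33 and 0.14), and for the results given with the library left out in the report. Few nuclei per library, 30 to 66 for Car3 IT-like, 43 to 107 for Sst-like and 53 to 93 for Vip-like nuclei, and few UMIs for Cbln1, Cbln4, Nxph3 and Nxph4, limit the precision.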
